A study of Mus musculus with 6 samples.

Results

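CpG islands are stretches of DNA rich in CpG dinucleotides that are unmethylated in most tissues, and methylation gained there is the form most often tied to silenced genes. TET1 oxidises 5-methylcytosine and carries a CXXC domain that binds unmethylated CpG-rich DNA, so islands are among the places where it is known to sit. Islands away from promoters, inside introns or between genes, often mark unannotated starts, enhancers or the flanks of developmental genes. The sites described here are the listed cytosines that lie in an annotated CpG island and in an intron or intergenic sequence, 287 of the 6756 cytosines in the authors' 2 deposited tables. The rule for them used the annotation alone, though it was set with earlier results of these data known. The feature had to begin with intron or Intergenic, and the detailed annotation with a CpG island label. No listed cytosine in a promoter, an exon or a termination site carried an island label in the tables, so islands at those places are not covered.

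The 3 Tet1 KO samples and the 3 WT samples are LSK cells, the lineage-negative, Sca-1-positive, Kit-positive fraction that holds the blood stem and progenitor cells, flow sorted from bone marrow of mice aged 6 months. The strain is written CD57BL/6 in the labels for both groups, and the sex, the allele and whether the samples of a group are separate animals are not stated. The assay was enhanced reduced representation bisulfite sequencing (ERRBS): it reads fragments rich in CpG and cannot separate methylcytosine from hydroxymethylcytosine. Each table gives 1 methylation difference per cytosine in percentage points, read here as KO minus WT from the list names and signs, and lists only absolute differences of at least 25. No per-sample value, coverage or p-value was used, so the sorted cells could not be checked against markers, the depth is unknown, no replicate spread or test stands beside any difference, and the counts below are descriptions.

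Most listed island cytosines were more methylated in KO than in WT cells. Of the 287 sites, 269 were hypermethylated (93.7%, 90.3 to 96.2% as the 95% interval by the exact Clopper-Pearson method) and 18 were hypomethylated. The interval treats the sites as independent, which neighbouring cytosines are not, so it is likely too narrow. Counted by site, the share was close to the background: 91.4% of the 4330 intron and intergenic sites outside islands and 92.8% of all listed sites were hypermethylated. The losses came from few loci. A single locus on the X chromosome held 13 of the 18 hypomethylated sites, and without it 98.2% of the island sites were hypermethylated. Joining sites of 1 direction less than 1000 bp apart gave 144 hypermethylated and 6 hypomethylated regions, nearest to 142 and 6 genes. The same joining gave 2708 hypermethylated and 361 hypomethylated regions outside islands, and 3786 and 451 over all listed sites. By region the island share was thus 96.0%, with relatively fewer losses than in either background, a difference that was not tested.

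Several of the closest gains lay just downstream of transcription starts, so the DNA before those starts is shown for the 4 genes with at least 3 hypermethylated island sites within 1000 bp of the start and a RefSeq promoter, and for Maged1, the hypomethylated gene whose site lay nearest its start. Each line is the 250 bases before the annotated start (RefSeq, GRCm38.p6), 5′ to 3′ on the gene's strand, with each CG in capitals. By the files' distances, the listed island cytosines of these 5 genes lie at least 100 bp past the start and so outside these stretches, though the starts of the 2 annotations were not compared. The listed positions are in mm9, and no mm9 genome was used here, so the islands' own sequence is not shown.
Mavs: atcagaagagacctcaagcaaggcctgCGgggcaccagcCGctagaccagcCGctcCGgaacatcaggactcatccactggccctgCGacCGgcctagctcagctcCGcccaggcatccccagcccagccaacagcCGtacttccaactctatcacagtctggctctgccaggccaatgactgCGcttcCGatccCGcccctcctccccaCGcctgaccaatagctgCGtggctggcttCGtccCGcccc
Scnn1g: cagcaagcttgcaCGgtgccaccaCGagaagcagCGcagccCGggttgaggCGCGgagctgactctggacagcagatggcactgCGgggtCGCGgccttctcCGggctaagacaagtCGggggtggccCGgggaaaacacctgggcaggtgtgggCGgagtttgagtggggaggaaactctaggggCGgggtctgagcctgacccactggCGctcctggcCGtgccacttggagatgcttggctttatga
Cplx1: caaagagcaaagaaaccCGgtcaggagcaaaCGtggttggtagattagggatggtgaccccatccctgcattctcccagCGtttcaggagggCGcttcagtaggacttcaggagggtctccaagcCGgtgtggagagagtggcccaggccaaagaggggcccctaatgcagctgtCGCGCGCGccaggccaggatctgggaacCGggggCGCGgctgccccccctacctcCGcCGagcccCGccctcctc
B3gnt3: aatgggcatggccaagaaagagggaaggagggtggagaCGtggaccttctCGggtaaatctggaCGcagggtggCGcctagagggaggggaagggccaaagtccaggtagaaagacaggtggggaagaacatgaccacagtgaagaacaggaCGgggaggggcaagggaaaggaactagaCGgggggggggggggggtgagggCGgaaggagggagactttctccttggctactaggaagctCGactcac
Maged1: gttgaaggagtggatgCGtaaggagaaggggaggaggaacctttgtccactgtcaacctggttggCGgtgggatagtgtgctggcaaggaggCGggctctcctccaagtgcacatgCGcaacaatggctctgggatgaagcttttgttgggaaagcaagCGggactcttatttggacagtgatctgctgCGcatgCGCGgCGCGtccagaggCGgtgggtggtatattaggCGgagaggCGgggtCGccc
The stretches lie at chr2:131233813-131234062 (Mavs, plus strand), chr7:121734229-121734478 (Scnn1g, plus), chr5:108550028-108550277 (Cplx1, minus), chr8:71701801-71702050 (B3gnt3, minus) and chrX:94542026-94542275 (Maged1, minus). They hold 15, 16, 15, 8 and 14 CG in the same order, searched as the letters CG, which read alike on both strands. A CG occurs in 91.7% of the 27025 promoter stretches of this length, with a median of 6 CG. At least 15 CG were held by 27.5% of those stretches and at least 8 by 43.4%, so such counts are common. Of the 148 genes nearest an island site, 107 (72.3%) had an entry in the promoter table, too few for a comparison of base composition over the genes, which is void.

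The island gains were also large. The 269 hypermethylated sites had a median difference of 43.5 percentage points (quartiles 33.9 and 56.4, range 25.2 to 97.6), against 39.9 for the 3958 hypermethylated intron and intergenic sites outside islands and 41.1 for all 6270 hypermethylated sites. Differences of at least 60 percentage points were seen at 53 of the 269 island sites (19.7%), against 9.95% outside islands and a background of 12.3% over all hypermethylated sites. The 53 sites came from 24 regions. The loci nearest Ttc34, Cd109 and Mavs held 21 of the 53, and without them 32 of 242 sites (13.2%) reached 60, with a median of 40.6. Counted by region the medians drew together: 39.0 percentage points over the 144 island regions and 38.6 over the 2708 regions outside islands, with 16 island regions (11.1%) and 6.57% of the others at a median of 60 or more. The listed values begin at 25, so all these medians leave out smaller differences.

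**Figure D1:**
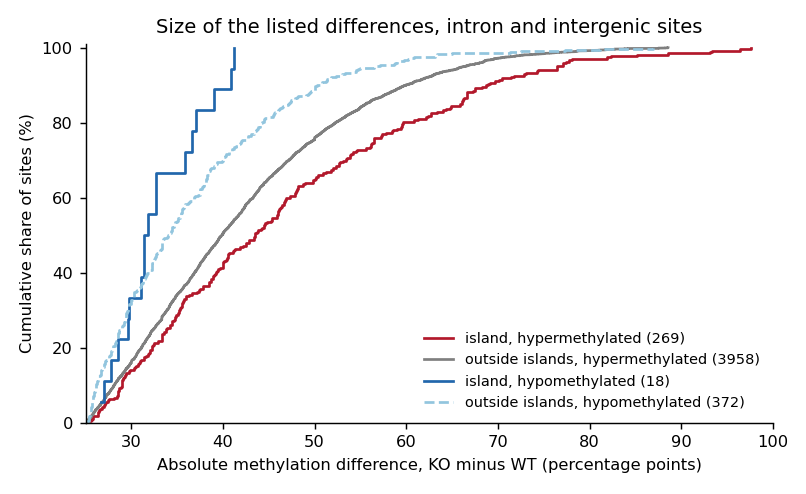
Cumulative share of sites (y axis, percent) by absolute methylation difference (x axis, percentage points) for intron and intergenic cytosines inside and outside islands, by direction, with site numbers in the legend. The red curve of the island gains lies to the right of the grey curve of gains outside islands, with medians of 43.5 and 39.9, while the island losses end at 41.2.

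Part of the island gains had close neighbours. At least 2 sites were held by 52 of the 144 hypermethylated island regions (36.1%), against 31.8% of all hypermethylated regions. These 52 regions held 177 of the 269 sites (65.8%), against 58.8% of all hypermethylated sites in such regions. At least 3 sites were held by 28 regions and at least 5 by 11, counts without a background beside them. Their median span was 39.5 bp, and 39 of the 52 spanned no more than 50 bp, the length of 1 read. In 45 of the 52 all sites lay on the same strand, so neighbouring values can come from the same reads and are not independent measurements. Among 119 pairs of adjacent same-strand island sites less than 50 bp apart, the values differed by a median of 7.25 percentage points, against 7.37 for 904 such pairs outside islands. Of the 119 pairs, 10 differed by more than 25, and 4 had identical values to within 1e-06, against 52 and 20 of the 904 pairs outside islands.

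Reads of the opposite strand are a separate look at the same CpG, but few CpGs had both strands listed: 2 of 285 island CpGs (0.702%) and 57 of all 6699 listed CpGs (0.851%). In the authors' deposited table the CpG in intron 1 of Mavs gained 66.7 points on the forward and 62.7 on the reverse strand, a gap of 3.94. The CpG in intron 8 of Krt86 gained 78.0 on the forward and 69.2 on the reverse strand, a gap of 8.90. Over all 57 listed CpGs with both strands the median gap was 8.29 and the widest 40.4 percentage points, which gives a scale for reading differences between single gains. All 57 pairs were gains, among listed sites of which 92.8% were gains, so their shared sign says little and no pair of losses was seen. Across the 57 pairs Pearson's r was 0.40 and Spearman's rho 0.34, a description of CpGs that share libraries and are all listed on both strands.

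The longest runs of gains lay between genes, far from any start. The 10 sites nearest Ttc34, a tetratricopeptide repeat gene, lay on chromosome 4 at 154176382 to 154176696, 53613 to 53927 bp from its start. In the authors' deposited table they gained 77.8, 96.4, 68.7 and 55.6 points on the forward strand. On the reverse strand they gained 93.3, 71.4, 77.1, 71.7, 77.4 and 64.9 points in the same table. Both strands were high, and the mean over the 10 sites was 75.4 percentage points. The 10 sites nearest Cd109, which encodes a membrane-anchored TGF-β co-receptor, fell within 41 bp at 78669486 to 78669526 of chromosome 9, at least 206133 bp from the start, all on the reverse strand. Their listed gains in the authors' deposited table were closely grouped, between 57.2 and 68.9 with a mean of 62.4 percentage points. The only other listed site nearest Cd109 was a promoter cytosine 770 bp from the start, at 53.8 percentage points.

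Other intergenic runs were shorter. The 7 sites nearest the olfactory receptor gene Olfr153, on chromosome 2 at 87366166 to 87366200, gained 32.0 to 64.0 points (mean 52.1) in the authors' deposited table. The 6 sites nearest Fndc3a, a fibronectin type III domain gene, lay 178017 to 178047 bp from its start and gained 43.5 to 60.9 points (mean 51.9) in the same table. On the X chromosome, 5 sites 164400 to 164450 bp from Gm4906 gained 43.5 to 73.1 points (mean 56.7). The 5 sites nearest B3gat1, whose enzyme takes part in making the HNK-1 carbohydrate, had a mean of 40.6 percentage points. The lowest was 28.6 and the highest 51.0 in the authors' deposited table. Each of these 4 runs lay on a single strand.

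Cdkn1c, an imprinted gene whose product p57 inhibits cyclin-dependent kinases and keeps blood stem cells quiescent, was nearest to 7 island gains 15499 to 15885 bp from its start. In the authors' deposited table the reverse-strand site gained 58.6 points, and the 6 forward-strand sites gained 30.8, 32.9, 33.9, 45.9, 29.0 and 25.2 points. The forward-strand sites were thus lower than the reverse-strand site, and the last lay at the listing threshold. Of 2 further listed sites outside the island, one lay 15929 bp from the start and the other 3159 bp, with gains of 41.5 and 43.7 points in the same table.

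**Figure D2:**
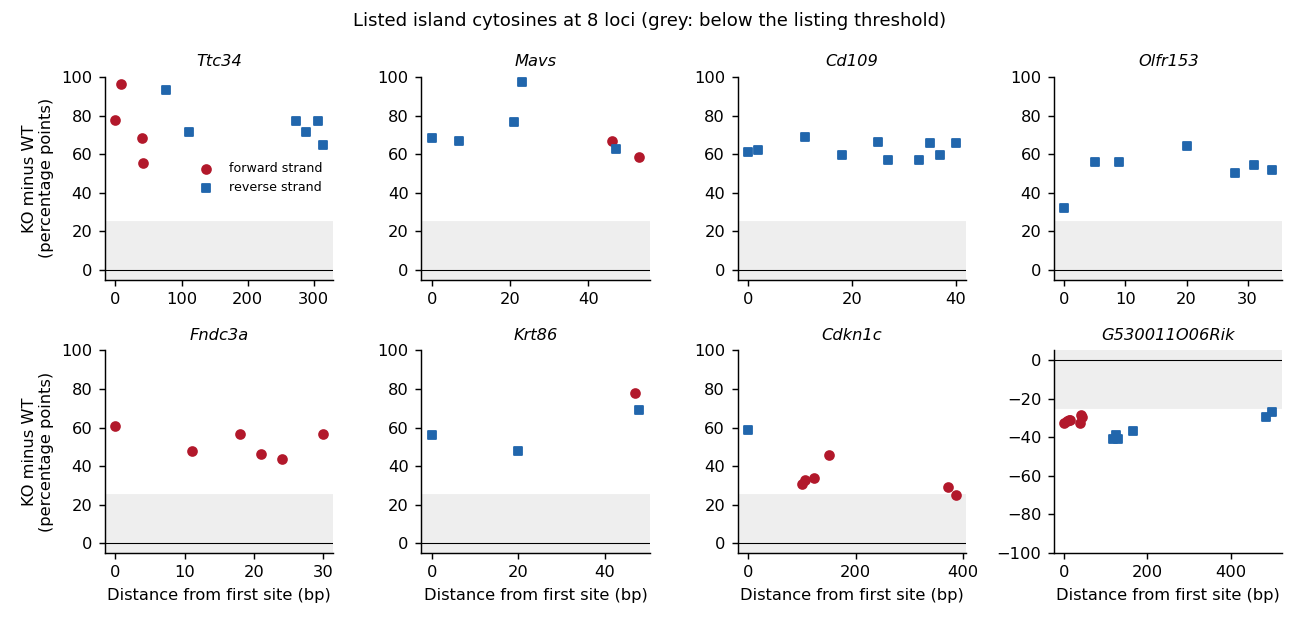
Methylation difference, KO minus WT in percentage points (y axis), against distance in bp from the first listed island site (x axis) at 8 loci named in the text, red circles for the forward and blue squares for the reverse strand. Ttc34 lies between 55.6 and 96.4 over 315 bp on both strands, and all 13 sites of G530011O06Rik lie below the grey band of unlisted differences.

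Intronic islands mostly lay early in genes. Introns held 154 of the 287 sites (53.7%), against 45.8% of the intron and intergenic sites outside islands. Of the 151 hypermethylated intronic island sites 104 (68.9%) were in intron 1, against 52.2% of hypermethylated intronic sites outside islands, and their median distance to the nearest start was 1142 bp, against 5337 bp. Within 1000 bp of a start lay 69 of the 151 (45.7%), against 24.5% outside islands. The annotation calls the closest cytosines promoter or exon instead, so intronic sites begin 100 bp from a start. The 118 hypermethylated intergenic island sites had a median distance of 29316 bp, close to the 30422 bp of intergenic sites outside islands, and 27 of them lay at least 100000 bp away. The size of the gain was alike in both places: a median of 43.3 in introns and 43.5 percentage points between genes.

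Of the first-intron runs with at least 3 sites, that of Mavs had the highest mean, 71.0 percentage points. Mavs encodes the mitochondrial adaptor that relays the signal of RIG-I-like RNA sensors to interferon genes. Its 7 sites on chromosome 2 at 131060190 to 131060243 lay 391 to 444 bp from the start, in intron 1 of 6. In the authors' deposited table the reverse-strand sites gained 68.3, 66.7, 76.5, 97.6 and 62.7 points. The 2 forward-strand sites gained 66.7 and 58.5 points in the same table. Every site exceeded 58 on both strands, and 97.6 was the highest value of all 6756 listed sites. Scnn1g, a subunit of the epithelial sodium channel, had 3 sites 190 to 208 bp from its start, with 38.7, 63.4 and 66.6 points in the authors' deposited table. Cplx1, a complexin that clamps synaptic vesicle release, had 3 sites 562 to 585 bp from its start between 54.0 and 67.3 points in that table.

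B3gnt3, which encodes a glycan-extending acetylglucosaminyltransferase, had 5 sites 100 to 143 bp from its start, from 38.5 to 51.3 (mean 43.1) in the authors' deposited table, and 2 more listed intron sites outside the island at 42.0 and 49.6 points. Gm5868 had 5 sites 255 to 406 bp from its start, from 35.5 to 67.5 points (mean 52.7) in the same table. Its promoter also held 3 listed sites, at 33.3, 42.9 and 43.5 points, so the gain was listed on both sides of the start. Lgr6, a receptor for R-spondins that marks epithelial stem cells, had 4 sites deep in intron 1 of 17, at least 19881 bp from its start, with 52.8, 57.8, 72.9 and 88.6 points in the authors' deposited table. Trat1, an adaptor of the T cell receptor, had 5 sites in intron 3 of 5 that ranged from 32.3 to 69.6 points (mean 52.9) in the same table.

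Single high values were found where neighbours were lower. Cck, the gene of the gut and brain peptide cholecystokinin, had 2 island sites 29 bp apart in intron 1 of 2 with 35.3 and 93.1 points in the authors' deposited table, and 4 listed sites in intron 2 and an exon, without an island label, averaging 37.4 points. The 2 sites nearest the protocadherin gene Pcdh1, both intergenic, had 44.6 and 81.9 points. Gm5294 was even instead at its 3 island sites, with 82.4, 76.5 and 76.5 points in intron 2 of 2. Its 10 listed exon sites were not, from 52.9 to 96.2 points with a mean of 75.9 in the authors' deposited table. Krt86, a hair keratin gene, had 47.8, 56.1, 69.2 and 78.0 points at its 4 sites in the last intron, and a mean of 61.2 over 4 listed sites in the adjoining exon. A single intergenic site 77770 bp from Itgb3, the integrin β3 gene of platelets, gained 85.1 points, and a single site in intron 7 of the heart and limb regulator Tbx5 gained 77.1 points in the same table.

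**Figure D3:**
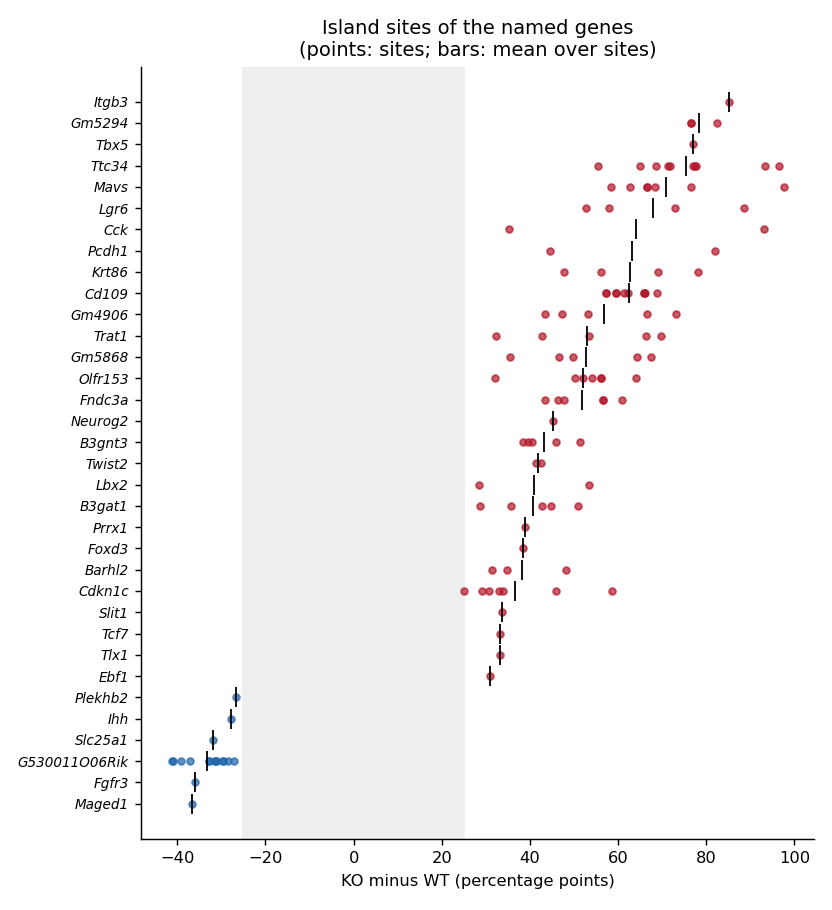
Methylation difference, KO minus WT in percentage points (x axis), of each listed island site (points) of the 34 named genes (y axis, ordered by mean), with the mean over sites as a black bar and the unlisted range in grey. Sites of one gene spread over up to 57.8 points, and 28 of the genes have gains and 6 have losses.

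**Figure D4:**
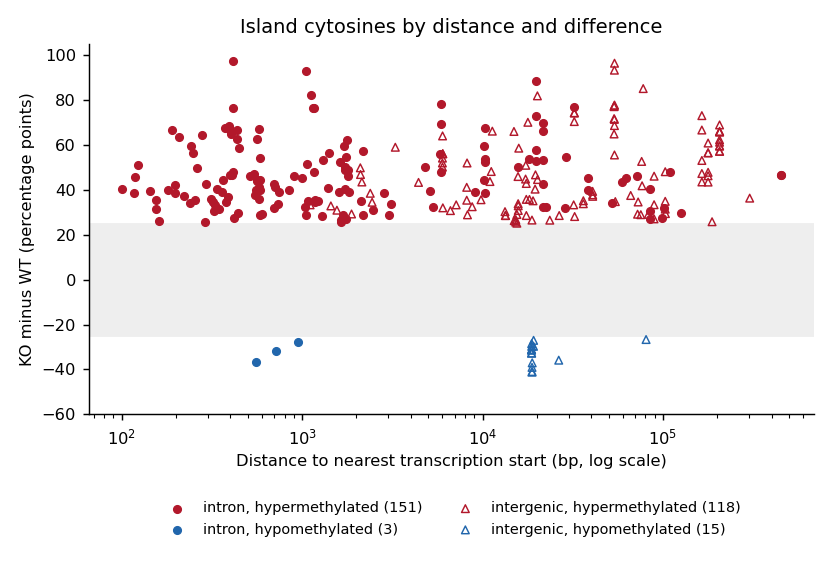
Methylation difference, KO minus WT in percentage points (y axis), of the 287 island sites against distance to the nearest transcription start (x axis, bp, log scale), filled circles for intron and open triangles for intergenic sites. High gains appear near to and far from starts, such as 97.6 at 414 bp (Mavs) and 96.4 at 53919 bp (Ttc34), and 13 losses fall together between 18690 and 19190 bp.

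Some island regions had listed neighbours that carried no island label. Within 2000 bp of the 144 hypermethylated island regions lay 93 further hypermethylated sites, beside 38 of the regions (26.4%). That share was not counted for regions outside islands. Exons held 44 of these neighbours, introns 26, intergenic sequence 12 and promoters 11, with a median of 47.7 percentage points. Since exon and promoter sites carry no island label in these tables, whether those neighbours lie inside the same islands is not known. A hypermethylated exon or promoter site lay within 2000 bp of 19 island regions (13.2%). The share was 4.10% for the 2708 hypermethylated intron and intergenic regions outside islands. By the medians above, intronic island gains lay closer to starts than intronic gains outside islands, and these shares do not allow for that. A hypomethylated site lay within 2000 bp of 0 island regions, against 7 of the 2708 others (0.258%). At that share 0 of 144 says nothing of the islands.

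The losses lay at few loci. The 18 hypomethylated sites had a median of -31.6 percentage points (range -41.2 to -26.7), against -34.1 for the 372 hypomethylated intron and intergenic sites outside islands. None reached 60 in size, against 3.23% of those outside islands, so 0 of 18 is near the background. The 13 sites nearest G530011O06Rik spanned 501 bp of the X chromosome at 166435539 to 166436039. In the authors' deposited table the 7 forward-strand sites lay between -32.7 and -28.5. The 6 reverse-strand sites lay between -41.2 and -27.0 in the same table. Losses were thus listed on both strands. Without an island label, 5 exon sites 11226 to 11272 bp from the same start were listed at -40.0 to -32.6 points in that table. They were annotated to the 3' UTR in the last exon of a transcript whose gene was not looked up. They are thus nearest to the start of G530011O06Rik but need not lie in that gene. The other island loss on the X chromosome was a site in intron 1 of Maged1, a MAGE family gene, at -36.6 points and 556 bp from the start.

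The 4 autosomal losses were single sites. Ihh, the hedgehog ligand of cartilage and gut, had -27.8 points in intron 1 of 2 in the authors' deposited table. It also had gains outside the island, of 27.0 points in an intron 1791 bp from the start and of 58.2 points between genes, 1153 bp from the start. Its region was the only 1 of the 6 hypomethylated regions with a listed gain within 2000 bp. Slc25a1, the mitochondrial citrate carrier, had -31.8 points in intron 2 of 8, at 713 bp from its start. The growth factor receptor gene Fgfr3 and the pleckstrin homology gene Plekhb2 were nearest to intergenic losses of -35.9 and -26.7 points, 26455 and 80665 bp away. With 1 listed cytosine each, these 4 losses have no second site beside them.

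The X chromosome held 14 of the 18 island losses (77.8%) and 10 of the 269 island gains (3.72%). Outside islands it held 10 of 372 losses (2.69%) and 0.960% of gains, and over all listed sites 9.47% of losses and 1.34% of gains. The locus nearest G530011O06Rik held 13 of the 14 island losses on X. Whether this locus lies in the part of X shared with the Y chromosome was not examined. Islands made up 24 of the 130 listed X sites (18.5%) and from 0.97 to 7.75% of the listed sites of each autosome. Of these 24, 13 came from the locus nearest G530011O06Rik and 5 from the run nearest Gm4906. The share was not counted by region. On autosomes alone 259 of 263 island sites (98.5%) were hypermethylated, against 91.5% of the intron and intergenic sites outside islands. The sex of the mice was not stated, and its part in the values on X was not tested.

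**Figure D5:**
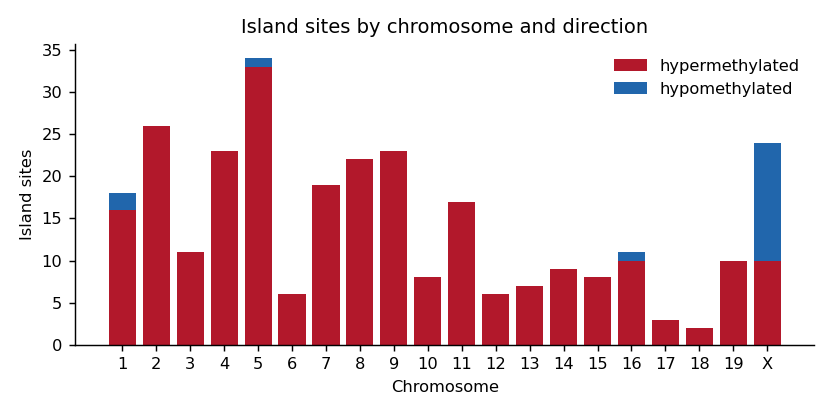
Number of island sites (y axis) on each chromosome (x axis), hypermethylated in red with hypomethylated in blue stacked above. Losses appear on chromosomes 1, 5, 16 and X, and 14 of the 18 are on X.

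Genes were also grouped by function, and no list had more than 7 genes nearest an island site. Those with gains included regulators of embryonic development, 2 blood lineage factors with 2 island sites in all, and 1 imprinted gene. Over all 3344 genes nearest a listed site, 148 (4.43%) were nearest an island site. Of 66 listed homeobox genes, which pattern the embryo, 7 (10.6%) were nearest island sites, all with gains alone and with a median over sites of 32.9 percentage points. They were Barhl2, Lbx2, Prrx1, Tlx1, Hmx1, Msx3 and Irx5. Of 53 listed genes of other developmental transcription factors 7 (13.2%) were nearest island sites: Twist2, Tbx5, Neurog2, Foxd3, Ebf1, Foxa2 and Sim2. All 7 had gains alone, with a median over sites of 39.9. Both medians lie below the 43.5 of all island gains. Counted by site, 10 of 193 listed sites nearest the homeobox genes were island sites, and 8 of 128 nearest the other factors. Over all listed sites it was 287 of 6756. A gene with more listed sites has more chances to be nearest an island site, and the shares by gene do not allow for this. The counts are small, the lists were not chosen independently of these data, and whether the shares differ from the background was not tested.

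The developmental genes had 1 to 3 island sites each. Barhl2, a neural homeobox gene, had 31.4, 34.9 and 48.1 points at 3 sites at least 103009 bp away in the authors' deposited table, and 5 more listed sites outside islands averaging 45.6. Twist2, a bHLH repressor of mesenchymal differentiation, had 41.3 and 42.6 points 3 bp apart in its only intron. It also had 6 listed sites without an island label, in its promoter, exon, intron and flanks, averaging 45.4. Lbx2 had 28.4 and 53.5 points in its intron. Prrx1, Tlx1 and Foxd3 had 1 site each, at 38.9, 33.3 and 38.5 points in the authors' deposited table. The site nearest Neurog2, a neural bHLH factor, had 45.2 points but lay 62386 bp from it, in an intron of Alpk1, so the nearest gene is not always the host gene. Among 148 intronic sites whose host could be named, 11 lay in a gene other than the nearest.

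The remaining lists had few island sites. Of 52 listed signalling genes 3 (5.77%) were nearest island sites: Ihh and Fgfr3 with the losses above, and the axon guidance ligand gene Slit1 with a gain of 33.8 points in intron 1 in the authors' deposited table. Of 23 listed blood cell regulators 2 (8.70%) were: Ebf1, which commits progenitors to the B lineage, with 31.0 points in intron 2, and Tcf7, which does so for T cells, with 33.3 points 32014 bp away. Of 11 listed imprinted genes Cdkn1c alone was. Of 9 listed genes of DNA methylation and island chromatin none was nearest an island site. Counted by site, island sites were 3 of 115 for the signalling genes, 2 of 58 for the blood cell regulators and 7 of 23 for the imprinted genes. They were 0 of 13 for the last list, against 287 of all 6756 listed sites.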

How the data were processed

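The authors' 2 deposited tables list cytosines by direction. Their Meth.diff column is a difference in percent methylation between genotypes, 1 value per cytosine over all 6 samples, and their other column used here is the distance in bp to the nearest annotated start, per the file headers. Bismark and mm9 are named, without role or version, in the submitters' processing notes. The caller, its coverage minimum and its thresholds were not given in the sources used here, and the depth is unknown. Columns of per-sample values left unused numbered 0.

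The members and the 6 gene lists (602 entries, 597 of them in the RefSeq table) were chosen with earlier results of these data known. Positions are mm9 as the files give them. Distances are absolute. The nearest gene is the files' own, and the name stored as a date at 1 site was recovered from its Entrez identifier. Host genes came from transcript accessions in RefSeq (GRCm38.p6), used for names only. Named genes were those with an island loss, the 12 with the most island gains (ties by mean), the 6 with the largest other single difference, and up to 4 per list. Scnn1g, Cplx1 and the other list members were added after their values were seen.

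Sites of 1 direction less than 1000 bp apart were joined. Python 3.11.15, pandas 2.3.3 and scipy 1.17.1 were used, and the joining, strand pairing and median intervals were tested on simulated data. No significance test was run, because the tables hold no replicates. Alternative settings changed the 25-point threshold, the unit, the strand, the chromosomes, the feature, the joining distance and a single locus. Counting by gene was added after the data were seen. Shares carry exact Clopper-Pearson 95% intervals, which cover counting error only and treat the units counted as independent. Of the 287 sites, 190 shared a region with another site, so intervals over sites are likely too narrow.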

Additional observations from a re-analysis of the deposited data

How the results depend on the processing

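Of 44 values under alternative settings, 32 stayed inside the 95% interval of the reported value (or within 1.5 times a reported count), 12 did not, and 0 changed sign. Some of the 32 could not move, so their number is no measure of stability. Leaving out the sites nearest G530011O06Rik kept the same 269 gains, and the strand gap rested on the same 2 CpGs in every setting. No sign could change, because gains and losses were summarised apart. The hypermethylated share of 93.7% was 98.8% at a threshold of 40 percentage points, 98.5% on autosomes, 98.2% without the sites nearest G530011O06Rik, 98.1% in introns and 88.7% between genes. The median gain of 43.5 was 53.7 at the 40-point threshold, by construction, and 39.0 both by region and by gene. The median loss of -31.6 was -41.1 at the 40-point threshold, with 2 sites left. The intronic share of 53.7% was 61.3% by region. The 150 regions became 76 at the 40-point threshold and 75 on the forward strand, where fewer sites were left. Joining within 200 or 5000 bp gave 155 and 149 regions.

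No paired analysis was possible because the tables hold no per-sample columns, and for the same reason no replicate was left out. Unknown depth limits each single-site value.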
